A study of Fukomys damarensis and Heterocephalus glaber and Cavia porcellus with 28 samples.

Results

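The heart of the guinea pig was compared with the heart of the mouse, gene by gene. Heart was taken from 3 male guinea pigs (Cavia porcellus) aged 2.3 months and from 3 male mice (Mus musculus) aged 2 months, with no treatment named for either species. They belong to a series of 28 samples of heart and liver from 4 rodent species, in which both serve as outgroups to 2 mole-rat species. The tissue was flash-frozen, and ribosomal RNA was removed from total RNA before sequencing. Each library came from a separate animal. Strain, housing and the part of the heart that was sampled are not given in the labels. Of 13928 genes in the deposited heart table, all listed under mouse gene identifiers, 10471 were kept because their mean over the 6 libraries lay at least 1 above the lowest value of the table. Myo19, with a mean 1.0001 above that value, was just inside, and Tc2n, with 0.9998, was just outside. The other 3457 genes were too low in these hearts to be compared.

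The guinea pig heart beats more slowly than the mouse heart and has a long action potential with a plateau, while the mouse action potential is short. For that reason the guinea pig is a common model of the human-like cardiac action potential, and the mouse is not. Cardiac muscle sets its speed with the choice of myosin heavy chain (Myh6 is the fast alpha form, Myh7 the slow beta form), with the potassium currents that end each beat, and with the pumps that return calcium to the sarcoplasmic reticulum, and it pays for work mainly with fatty acid oxidation in mitochondria.

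The deposited values are variance-stabilised and log2-like, and they carry no correction for gene length, so levels were not compared between genes. Gene length was not corrected between species either, and its part in the differences was not tested. A gene with 0 reads has the value 5.3645. A doubling moved the value by 0.99 from 10000 reads but by 0.28 from 10 reads, so differences of rare genes are understated. The transform could be inverted to whole reads, and levels are given below as scaled reads, that is reads divided by the size factor of the library. Differences are guinea pig minus mouse in the deposited log2-like value, with the standard error (SE) of limma. A gene was called when its limma adjusted p (Benjamini-Hochberg over all genes kept) was under 0.05 and the difference was at least 1 in size. Species, care of the animals and the transcript models used for counting change together between the groups, and their parts in a difference cannot be told apart. In bulk tissue, fewer cells of a type and less RNA per cell cannot be told apart either.

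Depth was 16129660 to 20551768 reads per guinea pig library and 23485705 to 26985779 per mouse library. The rank correlation of libraries was 0.971 to 0.973 within guinea pig, 0.987 to 0.989 within mouse and 0.687 to 0.714 between them. The tissue label held in all 6 libraries: Myh6 ranked 1 to 4 among all genes, Actc1, the cardiac actin, 5 to 12, skeletal muscle markers summed to 33.5 to 53.7 scaled reads, and lung and thymus markers to 7.3 at most. Guinea pig replicate 2 stood apart in the atrial myocyte genes Myl4, Sln and Nppa. With Bmp10 and Nr2f2, which was highest in guinea pig replicate 1, the atrial marker sum was 18560 scaled reads there, against 1194 as the lowest guinea pig sum and 625 to 3582 in mouse. Guinea pig replicate 1 stood apart in its mitochondrially encoded reads, which made up 18.0% of the library against 5.42% and 7.40% in the other guinea pigs and 22.4% to 25.6% in the mice.

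The 2 hearts differed broadly. Of the 10471 genes, 3490 were called (33.3%), 1660 of them higher in guinea pig (15.9% of genes kept) and 1830 lower (17.5%). The median difference was 0.00 and the median size of a difference was 0.67. All 3 guinea pig libraries lay on one side of all 3 mouse libraries for 7869 genes (75.2%), beside the 33.3% that were called. Differences of at least 3 were called for 307 genes, 143 higher and 164 lower. Among the 25% of genes with the highest mean values, 37.5% of the calls were higher in guinea pig, while among the 25% with the lowest it was 57.3%. The direction of the calls rested on the scaling of the libraries. With limma voom on the recovered reads and the authors' size factors, 2291 genes were higher and 2358 lower (49.3% of calls higher). With voom scaled to total reads instead, the median moved up by 0.53, and 3620 genes were higher and 1476 lower (71% of calls higher). Values given below as scaled to total reads come from that second voom fit, and the balance of several lists turned under it.

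**Figure D1:**
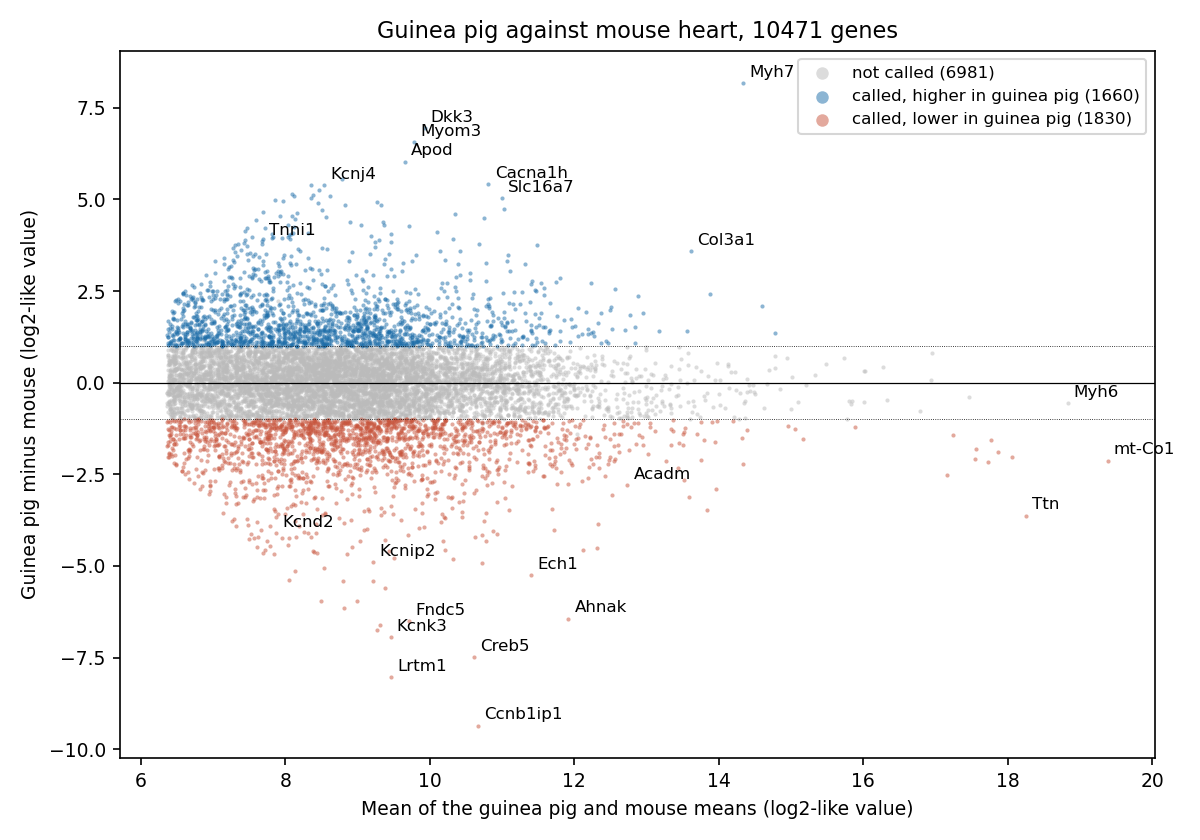
Difference between guinea pig and mouse heart (vertical axis, guinea pig minus mouse, log2-like value) against the mean of the 2 species means (horizontal axis, log2-like value), with 1 point per gene for 10471 genes. Blue points are the 1660 genes called higher in guinea pig, red points the 1830 called lower, grey points were not called, and dotted lines mark a difference of 1; Myh7 lies highest at 8.18 and Ccnb1ip1 lowest at -9.36.

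Myh7 (ENSMUSG00000053093) had the largest positive difference of all named genes. It had 187700, 404997 and 583393 scaled reads in the guinea pigs and 769, 1271 and 1503 in the mice, and the difference was 8.18 ± 0.45 (SE, n = 3 per species, limma adjusted p = 1.52e-10). No mouse library came near any guinea pig library. Myh6 (ENSMUSG00000040752), the fast form, had 361792, 416176 and 374877 scaled reads in guinea pig and 527167, 567282 and 602451 in mouse. With the authors' size factors every guinea pig was lower than every mouse. The difference of -0.56 ± 0.46 was under the size limit of 1 and did not pass the test (limma adjusted p = 0.312). The SE pools the spread of all heart libraries, mole-rats included, so this p does not measure guinea pig and mouse spread alone. The SD of Myh6 was 0.10 in guinea pig and 0.10 in mouse, while naked mole-rat values ran from 16.27 to 18.98. When scaled to total reads, the Myh6 difference was -0.03. The 2 genes are close paralogs that lie side by side, and reads from their shared stretches could be split between them in ways the counts do not show.

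The next largest positive differences among genes with both means at least 1 above the table minimum belonged to genes of varied roles, some of them close to that limit in mouse. Dkk3, a secreted protein of the Dickkopf family, had 8512, 10568 and 13850 scaled reads in guinea pig against 25.9, 26.5 and 21.7 in mouse, a difference of 6.95. Myom3, a myomesin that cross-links thick filaments at the M-band, had 9519, 7218 and 8689 against 29.9, 22.6 and 28.1, a difference of 6.56. Both were far apart in every library. Apod, a lipid-binding lipocalin, differed by 6.03, and Cacna1h, a T-type calcium channel, by 5.42. Slc16a7, a monocarboxylate transporter with high affinity for pyruvate, differed by 5.03. The kinase-like gene Rps6kl1 (4.92), the lipoprotein gene Apoa1 (4.85), the inhibin subunit Inha (4.84), the smooth muscle light chain Myl9 (4.75), the microtubule protein Map1a (4.61) and the intermediate filament protein synemin, Synm (4.50), completed the 12 largest. Apoa1 was also listed as a hepatocyte marker. Its mean value in liver was 7.18 in guinea pig and 17.14 in mouse, in a table normalised separately. The part of liver tissue in the heart difference was not tested. The other hepatocyte markers (Alb, Ttr, Fgb) summed to 372 to 1771 scaled reads in guinea pig and 270 to 993 in mouse, with overlapping ranges.

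Among genes above the same limit in both hearts, the transcription factor Creb5 had the largest negative difference, at -7.48. It had 52.6, 42.9 and 51.2 scaled reads in guinea pig and 21254, 28912 and 14429 in mouse. Fndc5, the precursor of the secreted peptide irisin, had 26.6, 17.6 and 31.5 against 7556, 7471 and 8701, a difference of -6.50. Ahnak, a very large scaffold protein, had 279, 375 and 359 against 35060, 34381 and 38437, a difference of -6.44. The spread within a species was small beside these gaps. Mylk4, a myosin light chain kinase of muscle, differed by -5.61. Hopx, a homeodomain-only cofactor of cardiac development, differed by -5.41. Ech1, an isomerase that lets unsaturated fatty acids enter beta-oxidation, had 559, 295 and 278 scaled reads against 16521, 15004 and 18339, a difference of -5.25. The ubiquitin ligase Nedd4 (-4.93), the potassium channel subunit Kcnip2 (-4.89), the triglyceride-forming enzyme Dgat2 (-4.81), the mitochondrial carrier Slc25a34 (-4.79), Rflnb (-4.67) and the mitochondrial transport GTPase Rhot2 (-4.58) followed.

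For 654 called genes the species with the lower level had a mean within 1 of the table minimum, that is under about 20.6 scaled reads. Of these, 369 were high in guinea pig and 285 in mouse. Guinea pig hearts had 1658, 2464 and 2066 scaled reads of the relaxin receptor Rxfp1, and mouse hearts had 3.3, 0 and 4.0. The epithelial sodium channel subunit Scnn1a (3679, 2293 and 3073 against 8.6, 7.0 and 8.8) and the inward rectifier Kcnj4 (2656, 2191 and 2124 against 3.3, 4.7 and 5.6) had the same pattern, as did Diras2 and the GABA receptor subunit Gabra5. In the other direction, the gene furthest apart was Ccnb1ip1, with 13.6, 6.1 and 4.7 scaled reads in guinea pig against 46433, 50008 and 30748 in mouse. Lrtm1 had 1.3, 0 and 0 against 11669, 12013 and 10412. Some genes in this group encode proteins that nearly every cell makes. Ywhae, the epsilon form of the 14-3-3 adaptors, had 9.1, 3.8 and 4.7 scaled reads in guinea pig heart against 6360, 6311 and 6210 in mouse heart, and it differed by -6.95 in liver too. Its mean in naked mole-rat heart was 5.36, the value of 0 reads, and 13.21 in Damaraland mole-rat heart. Rpl41, a ribosomal protein, had 11.7, 7.7 and 6.3 against 6206, 6483 and 5894, with -7.60 in liver. Dnaja1, a chaperone partner of Hsp70, had 1.3, 2.3 and 0 against 838, 1112 and 933, with -7.26 in liver. How reads of each species were assigned to mouse gene identifiers is not given in the sources used here, and whether these guinea pig transcripts were fully represented was not tested.

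Groups of genes with shared roles were taken from 28 lists and read against the background of 15.9% higher and 17.5% lower. The extracellular matrix list stood furthest on the side of the guinea pig, and the mitochondrially encoded, fatty acid and action potential channel lists stood furthest on the side of the mouse.

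**Figure D2:**
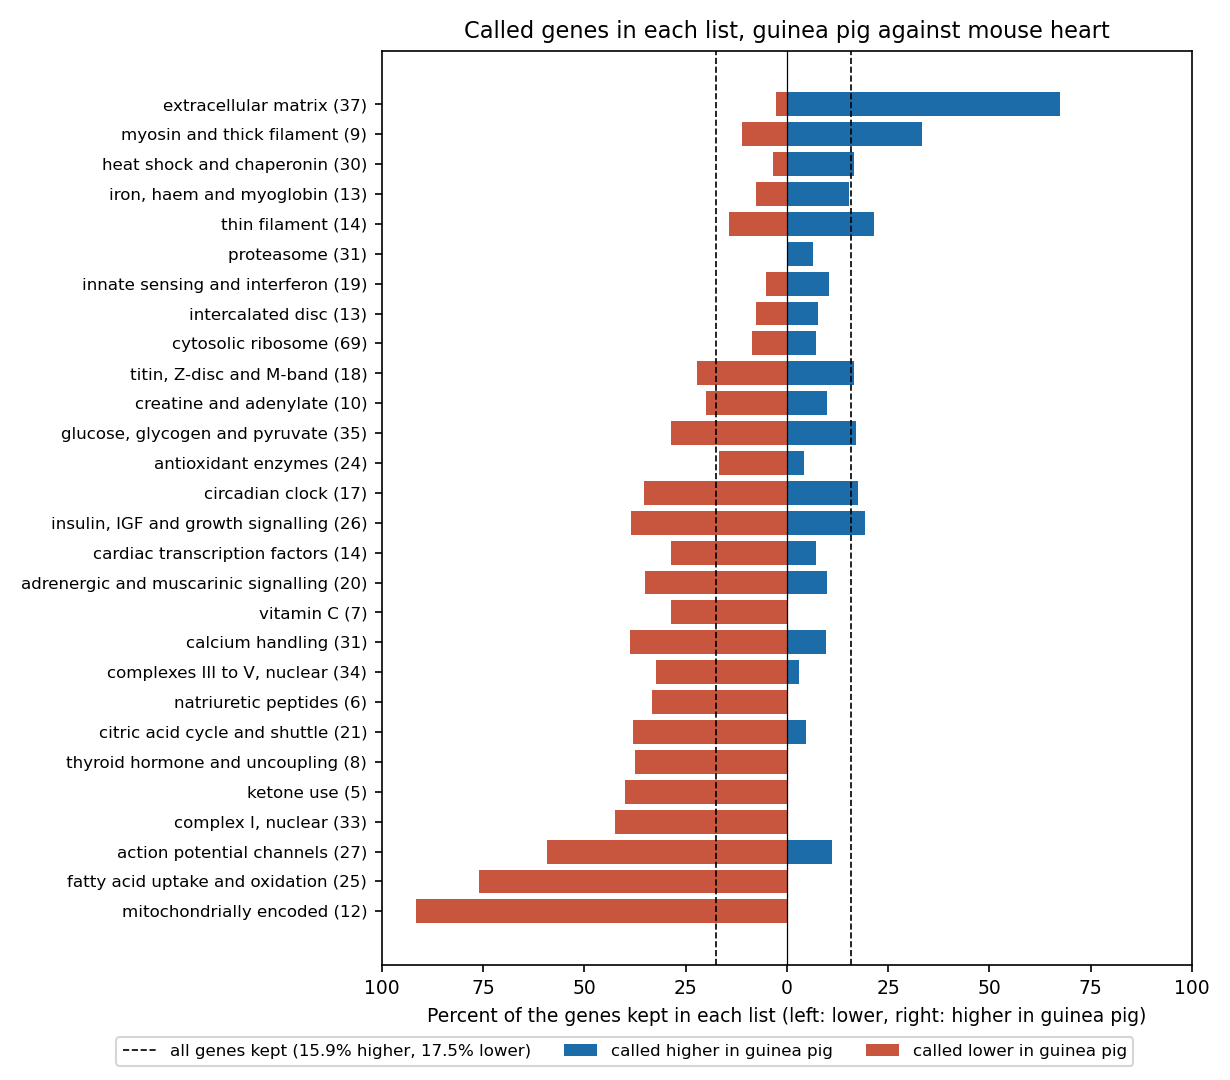
Percent of the genes kept in each of 28 lists (number of genes in brackets) that were called higher in guinea pig (blue bars to the right) or lower (red bars to the left), with dashed lines at the 15.9% and 17.5% of all genes kept. Of 37 matrix genes 25 were higher, and 11 of 12 mitochondrially encoded, 19 of 25 fatty acid and 16 of 27 channel genes were lower.

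Contractile genes were called about as often as all genes kept (33.3%) or somewhat more often. The share called was 44.4% for myosin and thick filament, 35.7% for thin filament and 38.9% for titin, Z-disc and M-band genes. Of 9 myosin and thick filament genes, 3 were higher (Myh7, Myh7b and Mybphl) and 1 was lower (Mylk3, the cardiac myosin light chain kinase, -1.42, or -0.91 when scaled to total reads). Myh7b, a slow myosin related to Myh7, had 1832, 1433 and 2156 scaled reads against 92.9, 149 and 326, a difference of 2.92. Mybphl, a myosin-binding protein of atrium and conduction system, had 258, 589 and 54.4 against 1.3, 1.6 and 7.2, a difference of 2.50. Its highest level was in guinea pig replicate 2, the library with high atrial markers, and without that library the difference was 1.92 (limma adjusted p = 0.0172). The ventricular light chains Myl2 (0.80) and Myl3 (-0.47) were not called. Myl4, the atrial light chain, had 113, 6229 and 48.9 against 33.8, 43.6 and 49.7. Guinea pig replicate 2 alone carried its difference of 2.24, which was 0.44 without it.

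Of 14 thin filament genes, 3 were higher and 2 lower, and 3 and 0 when scaled to total reads. Tnni1, the slow skeletal troponin I that the heart uses before birth, had 758, 1308 and 333 scaled reads in guinea pig and 2.7, 3.1 and 3.2 in mouse, a difference of 3.86 ± 0.55 (limma adjusted p = 1.28e-05). Tnni3, the adult cardiac troponin I, had 22892, 20672 and 22037 against 51473, 54883 and 52544, a difference of -1.27 ± 0.20, which was -0.75 when reads were scaled to total reads and -0.84 with quantile normalisation. The guinea pig libraries were therefore higher for the early form and lower for the adult form of the same subunit, with no overlap in either. The beta-tropomyosin Tpm2 (3.26) and the slow troponin T Tnnt1 (1.71) were also higher. Xirp2, an actin-binding protein of the intercalated disc, differed by -1.06, and by -0.70 without guinea pig replicate 1 or -0.93 without mouse replicate 3, which ended the call. Cardiac troponin T (Tnnt2, 0.33), troponin C (Tnnc1, 0.15), tropomyosin 1 (Tpm1, 0.08) and cardiac actin (Actc1, -0.40) were not called.

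Of 18 titin, Z-disc and M-band genes, 3 were higher (Myom3, Myom2 and Myot) and 4 lower (Ttn, Des, Fbxo32 and Csrp3), but 6 were higher and 1 lower when scaled to total reads. The last pair rested on 1 library: Fbxo32 (-1.36) was at -0.90 without guinea pig replicate 2, and Csrp3 (-1.23) at -0.98 without guinea pig replicate 1. Titin (Ttn, ENSMUSG00000051747), the spring that spans the sarcomere from Z-disc to M-band, had 83449, 92872 and 88936 scaled reads in guinea pig and 958026, 1092441 and 1262577 in mouse. The libraries were far apart, with a difference of -3.63 ± 0.29 (limma adjusted p = 1.44e-08). Titin had a difference of -2.41 in liver as well. The summed reads of 9 cardiomyocyte markers, Ttn included, ran from 940593 to 1051853 in guinea pig and from 2122782 to 2531434 in mouse. Without Ttn the sums were 857144 to 962918 and 1164757 to 1268858. The list holds Myh6 but not Myh7, which had 187700 to 583393 scaled reads in guinea pig and 769 to 1503 in mouse. These sums therefore leave out the slow myosin of guinea pig and do not measure all cardiomyocyte reads. Myom2, a second myomesin, was higher by 1.35, and desmin, Des, the intermediate filament of muscle, differed by -1.50 (-0.98 when scaled to total reads).

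The channels that shape the action potential differed more often than most lists. Of 27 kept, 3 were higher (Cacna1h, Kcnj2 and Kcnq1), 16 were lower and 8 were not called, with a median difference of -1.39 (-1.58 when scaled to total reads). The genes of the fast transient outward current, which ends the mouse beat early, were very low in guinea pig. Kcnd2 (ENSMUSG00000060882) had 7.1, 0.8 and 6.3 scaled reads against 1037, 1006 and 676, a difference of -4.11 ± 0.20 (limma adjusted p = 2.80e-11). Kcnd3 had 1.9, 0 and 6.3 against 408, 431 and 428. Their auxiliary subunit Kcnip2 had 52.6, 32.2 and 43.4 against 2682, 3438 and 3426. All 3 genes of this current thus had guinea pig levels far under the lowest mouse library. In both mole-rats the heart means of Kcnd2 (5.76 and 5.42) and Kcnd3 (6.38 and 6.02) were also within about 1 of the table minimum.

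Other potassium channels of the mouse beat followed the same direction. The leak channel Kcnk3 had 1.3, 40.6 and 0.8 scaled reads against 7893, 7184 and 8101, and its only guinea pig library above 2 scaled reads was replicate 2. The ATP-sensitive channel was lower in 3 of its parts: the pore Kcnj11 (-2.48) and the regulatory subunits Abcc8 (-2.69) and Abcc9 (-2.07). The second pore gene, Kcnj8, was not called (0.21). The muscarinic potassium channel genes Kcnj3 (-1.45, or -1.22 and not called without guinea pig replicate 2) and Kcnj5 (-1.24) and the inward rectifier Kcnj12 (-2.66) were lower, whereas Kcnj2, the main inward rectifier of ventricle, was higher by 1.21.

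The slow and rapid delayed rectifiers, which end the long guinea pig action potential, had modest differences in their pore genes. Kcnq1, the pore of the slow current, had 1856, 1547 and 1524 scaled reads against 828, 809 and 695, a difference of 1.01 ± 0.20 (limma adjusted p = 3.00e-04). That is just inside the size limit, and it was 0.92 without guinea pig replicate 1 and 0.93 without mouse replicate 3. Its partner Kcne1 went the other way, with 45.5, 19.2 and 25.2 against 274, 157 and 106, a difference of -1.39. Kcnh2, the pore of the rapid current, had 3753, 2433 and 3509 against 1716, 1690 and 1319. Its libraries did not overlap, but its difference of 0.99 (limma adjusted p = 0.0155) missed the size limit, which it passed without guinea pig replicate 2 (1.17).

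Calcium and pacemaker channels also split. The T-type channel Cacna1h had 13579, 10869 and 10815 scaled reads in guinea pig and 261, 175 and 169 in mouse, a difference of 5.42 ± 0.23 (limma adjusted p = 8.47e-12), while the other T-type gene, Cacna1g, was not called (-0.30). The L-type pore Cacna1c, through which calcium enters in each beat, had 1582, 1201 and 1563 against 7262, 7272 and 8419, a difference of -2.34. The pacemaker channel Hcn4 had 3.2, 28.4 and 4.7 against 604, 423 and 476, and the sodium channel subunit Scn4b had 42.9, 35.3 and 27.6 against 811, 843 and 1042. Conduction system markers, of which Hcn4 and Cacna1g are 2, summed to 1005 to 1328 scaled reads in guinea pig and 1332 to 1830 in mouse. Hcn4 (-3.12) is itself part of this sum, so the sum is not separate from its result. Among the other markers, Cntn2 was called lower (-1.80), while Gjc1 (0.83) and Tbx3 (0.17) were not called.

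**Figure D3:**
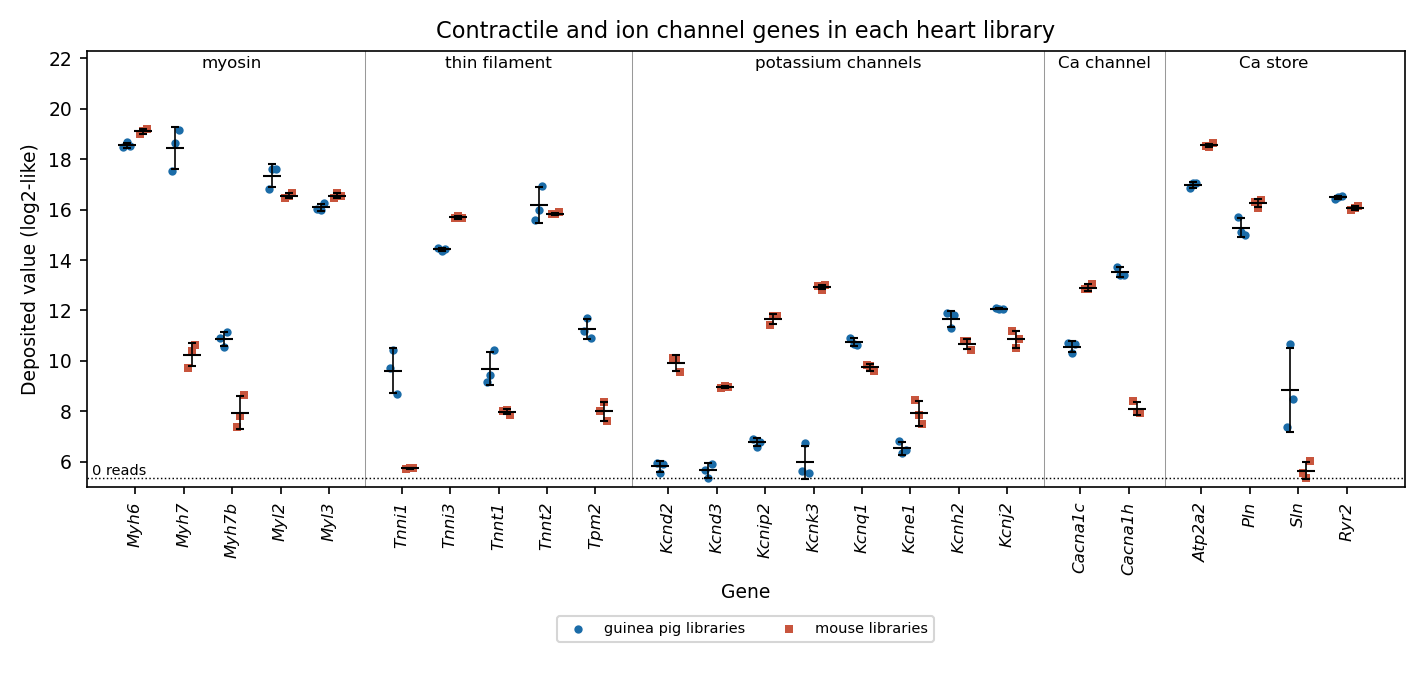
Deposited log2-like values of contractile, ion channel and calcium store genes (horizontal axis) in each of the 3 guinea pig (blue circles) and 3 mouse libraries (red squares), with the species mean as a bar and ± 1 SD as whiskers, and a dotted line at the value of 0 reads (5.3645). Myh7, Tnni1 and Cacna1h are high in guinea pig and Kcnd2, Kcnd3, Kcnip2 and Kcnk3 in mouse, while Myh6 and Kcnh2 differ by less than 1 between the species means.

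Of 31 calcium handling genes, 3 were higher and 12 lower, with a median difference of -0.15 (0.38 when scaled to total reads, under which 8 were higher and 11 lower). The lower genes were largely parts of the sarcoplasmic reticulum and its junctions. Atp2a2, the pump that refills the store, had 118933, 135374 and 135067 scaled reads in guinea pig and 373572, 371696 and 405626 in mouse, a difference of -1.56 ± 0.24 (limma adjusted p = 3.01e-05). With quantile normalisation the difference was 0.03 (limma adjusted p = 0.946), and the cause was not tested. Jph2, which holds the reticulum close to the surface membrane, had 1292, 683 and 874 against 10063, 10723 and 11656 (-3.44). Asph (-3.25), triadin, Trdn (-2.14), the calcium-binding calsequestrin Casq2 (-1.65) and sarcalumenin, Srl (-2.65), were lower too. Ryr2, the release channel, was not lower in any guinea pig library (88349, 92650 and 95287 against 65288, 67781 and 72154), and its difference of 0.43 was not called.

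The regulators of the pump differed. Phospholamban, Pln, which restrains it, had 53428, 35222 and 32934 scaled reads against 81773, 68926 and 86401, a difference of -0.99 that missed the size limit (-1.21 without guinea pig replicate 1). Sarcolipin, Sln, its atrial counterpart, had 92.9, 1541 and 282 against 0.7, 0 and 8.8, a difference of 3.19 ± 0.82 (limma adjusted p = 0.00303). The highest value was again in guinea pig replicate 2, and without that library the difference was 2.28 (limma adjusted p = 0.0245). The part of atrial tissue in this result was not tested.

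Signalling to the heart was lower in guinea pig for most of the genes called. Of 20 adrenergic and muscarinic genes, 2 were higher (Adcy5 and Grk5, 10% beside 15.9% of all genes) and 7 lower (35% beside 17.5%). Chrm2, the receptor through which the vagus slows the heart, had 693, 502 and 602 scaled reads against 3344, 3366 and 2910, a difference of -2.28. The alpha-1 adrenergic receptors Adra1a (-2.19) and Adra1b (-1.96), the adenylate cyclase Adcy6 (-1.95) and the kinase subunit Prkar2a (-2.16) were lower. Among 6 natriuretic peptide genes kept, Corin, the protease that activates the peptides, had a difference of -2.75, and the clearance receptor Npr3 differed by -2.14. No other member was called, and the share called was 33.3%, as over all genes. The peptide gene Nppa had 322, 10321 and 864 against 439, 3395 and 1278. Its spread within each species exceeded the gap between them (0.23 ± 1.07, limma adjusted p = 0.866). Nppb and the sodium-calcium exchanger Slc8a1 were not analysed here. Of 14 cardiac transcription factors, 35.7% were called, near the 33.3% of all genes. Of these, 4 were lower (Mef2a at -2.37, Srf at -1.94, Tbx20 and Prox1) and 1, the atrial and venous factor Nr2f2, was higher (1.60). When scaled to total reads, 2 were lower and 3 higher. Pkp2 (1.27) and Ctnna1 (-1.13, its call lost without guinea pig replicate 1) were the only genes called among 13 of the intercalated disc, a share of 15.4% beside the 33.3% of all genes, and 4 were higher and none lower when scaled to total reads.

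Genes of fatty acid uptake and oxidation were mostly lower in guinea pig. Of 25 genes, 19 were lower in guinea pig (76.0% beside the background of 17.5%), none was higher, and the median difference was -1.32 (-0.81 when scaled to total reads, under which 12 were lower). The lower genes covered entry, the carnitine shuttle and beta-oxidation. The 19 also include the carboxylase Acacb, which is not itself a step of these. Its difference was -1.11, or -0.73 and not called with quantile normalisation. At entry, Cd36, the fatty acid transporter, had 6384, 8825 and 9691 scaled reads against 23151, 23409 and 26707 (-1.57), and Fabp3, the heart fatty acid binding protein, had 8119, 9059 and 11506 against 46150, 42512 and 44945 (-2.22). For the carnitine shuttle, Cpt1b (-1.11), Cpt2 (-1.20) and Slc25a20 (-1.77) were lower. In beta-oxidation itself, Acadm (ENSMUSG00000062908), the medium-chain dehydrogenase, had 2635, 2280 and 2607 against 17175, 16811 and 19866, a difference of -2.80 ± 0.20 (limma adjusted p = 5.50e-09). The libraries of the 2 species were far from overlapping. Both subunits of the trifunctional protein, Hadha (-2.33) and Hadhb (-2.12), and the very-long-chain dehydrogenase Acadvl (-1.71) were lower too. The members not called were Slc27a1, Acsl1, Cpt1a, Etfa, Mlycd and Ppara, the last a transcription factor that drives these genes, at 0.37.

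Ucp3, an uncoupling protein of muscle mitochondria, was at 0.6, 0.8 and 0.8 scaled reads in guinea pig and 1622, 1460 and 1649 in mouse. It was near the table minimum in both mole-rats too, with means of 5.66 and 5.36. Ucp2 (-1.63) and the thyroid hormone receptor Thrb (-1.71) were lower, while Thra (0.48) was not called. Slc16a1, a transporter of lactate and ketone bodies, differed by -3.56.

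Glucose and pyruvate genes did not move together. Of 35, 6 were higher (17.1%, beside 15.9% of all genes) and 10 lower (28.6%, beside 17.5%), and 19 were not called. When scaled to total reads, 9 were higher and 5 lower. The hexokinases changed places: Hk1 had 12259, 17885 and 21998 scaled reads against 3398, 3083 and 3238 (2.36), and Hk2, the insulin-responsive form, had 417, 342 and 397 against 7269, 7844 and 9211 (-4.14 ± 0.23, limma adjusted p = 1.52e-10). Other isoform pairs also split. The brain aldolase Aldoc had 516, 723 and 810 against 2.0, 3.1 and 5.6, while the muscle aldolase Aldoa was not called (-0.05). The broadly expressed mutase Pgam1 was higher by 2.54, while the muscle mutase Pgam2 differed by -1.50. The platelet phosphofructokinase Pfkp was higher by 1.93, while the muscle form Pfkm was not called (0.11). At the gate to the mitochondrion, the pyruvate carrier genes Mpc1 (748, 419 and 773 against 5944, 6315 and 6487; -3.16) and Mpc2 (-1.51) and the dehydrogenase subunits Pdha1 (-1.41) and Pdhb (-1.39) were lower. Pdk4, the kinase that shuts that dehydrogenase off in fasting, had 561, 725 and 4726 against 20267, 18840 and 19349, a difference of -3.85 ± 0.55. Guinea pig replicate 3 was well above the other guinea pigs for Pdk4 and still under every mouse.

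In heart, mitochondrial energy genes leaned the same way in nuclear and mitochondrial genomes. In the nuclear genome, 14 of 33 complex I genes were lower and none higher (median -0.79), led by Ndufv3 (-2.08) and Ndufb8 (-1.92). Of 34 genes of complexes III to V, 11 were lower and 1, Cox8a, was higher, and of 21 citric acid cycle and shuttle genes 8 were lower and 1, Suclg2, was higher. Sdhd, an anchor of succinate dehydrogenase, had 1072, 1193 and 896 scaled reads against 5913, 6254 and 6086 (-2.45). When scaled to total reads, 6 complex I genes, 9 of complexes III to V and 3 of the cycle were lower. Median differences in liver were -0.71 for complex I, -0.82 for complexes III to V and -0.53 for the cycle. The heart medians were -0.79, -0.65 and -0.93, so these nuclear lists leaned the same way in both organs.

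Of 12 mitochondrially encoded genes, 11 were lower in guinea pig (91.7%), with a median of -2.06. mt-Co1, the core of cytochrome oxidase, had 605932, 202091 and 284878 scaled reads against 1412502, 1260756 and 1634276, a difference of -2.13 ± 0.50 (limma adjusted p = 0.00157). Guinea pig replicate 1, the library with the highest mitochondrial share, was the highest guinea pig library for all 11 lower genes. mt-Nd6, the only one of them read from the other DNA strand, had 94512, 64402 and 67253 against 56033, 54516 and 68560 and was not called (0.32). Without guinea pig replicate 2, 9 genes were lower, with mt-Nd2 (-0.79) and mt-Nd3 (-0.99) under the limit, and mt-Nd2 was also lost without mouse replicate 3 (-1.33, limma adjusted p = 0.0697). With quantile normalisation 6 were lower. In liver the median of this list was -0.11. Damaraland mole-rat heart libraries, counted by the same study, had 0.01% to 0.03% mitochondrially encoded reads. Whether these genes were counted alike in guinea pig and mouse was not tested.

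Extracellular matrix genes were the group most often higher in guinea pig. Of 37, 25 were higher (67.6% beside the background of 15.9%) and 1, Bgn, was lower, with a median of 1.60 (2.31 when scaled to total reads, under which 32 were higher). Among fibrillar collagens, Col3a1 (ENSMUSG00000026043) had 32827, 84917 and 28856 scaled reads against 3298, 4590 and 2889, a difference of 3.58 ± 0.55 (limma adjusted p = 2.71e-05), and Col1a2 had 9652, 22873 and 8245 against 1468, 2368 and 1659 (2.71). Guinea pig replicate 2 was the highest for both. Col5a1 (2.27), Col5a2 (2.60) and the microfibril collagens Col6a1 (2.45), Col6a2 (2.77) and Col6a3 (2.51) were higher. In the basement membrane, which wraps each myocyte, Nid2 had 4643, 4252 and 5097 against 252, 459 and 262, a difference of 3.60 ± 0.31 (limma adjusted p = 3.62e-08). Nid1 (1.74), Lama4 (1.88), Lamb1 (1.83) and Lamc1 (1.46) were also higher, while the type IV collagen Col4a1 (0.65) and the perlecan gene Hspg2 (0.52) were not called. Fibronectin, Fn1 (2.47), fibrillin, Fbn1 (2.03), and the proteases and inhibitors Mmp2 (2.80), Mmp14 (1.60) and Timp2 (2.20) were higher. Biglycan, Bgn, differed by -1.26, and its call was lost without guinea pig replicate 1 (-1.04) or 3 (-1.03). Without guinea pig replicate 2, 25 matrix genes were called higher.

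Fibroblast markers overlap with this list. Of 7 fibroblast markers in the table, 5 were higher (Col3a1, Lum, Postn, Pdgfra, and Dcn, which was at 0.93 without guinea pig replicate 1), 1 was lower (Ddr2, -1.33) and Tcf21 was not called (0.96). Their sum was 37552 to 96839 scaled reads in guinea pig and 7858 to 10240 in mouse, and Col3a1 was its largest part in every library. Col3a1, Dcn, Lum and Postn stand in both lists, so their direction repeats the matrix result. The 3 markers outside it split, with Pdgfra higher (1.45), Ddr2 lower and Tcf21 not called. Schwann cell markers, of the sheath cells of nerve, were also higher: 4 of the 5 were called, among them Mbp (2.40), Sox10 and S100b, and the sum was 762 to 1122 against 75.4 to 125. Sums for endothelial cells (17344 to 22656 against 14103 to 18419), macrophages (2707 to 3097 against 2645 to 3472) and smooth muscle and pericytes (16182 to 18804 against 15393 to 23328) overlapped between the species. Rgs5 was the largest part of the last sum (8878 to 9874 scaled reads against 10440 to 14261). Within that list Pdgfrb was called higher (1.37) and Acta2 lower (-1.57). The adipocyte sum was lower in guinea pig (1476 to 3485 against 5394 to 6540), and nearly all of it was Fabp4. Of the others, Cidec had 22.7, 23.8 and 18.9 scaled reads against 0, 1.6 and 0. The part of cell makeup in the matrix result was not tested.

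**Figure D4:**
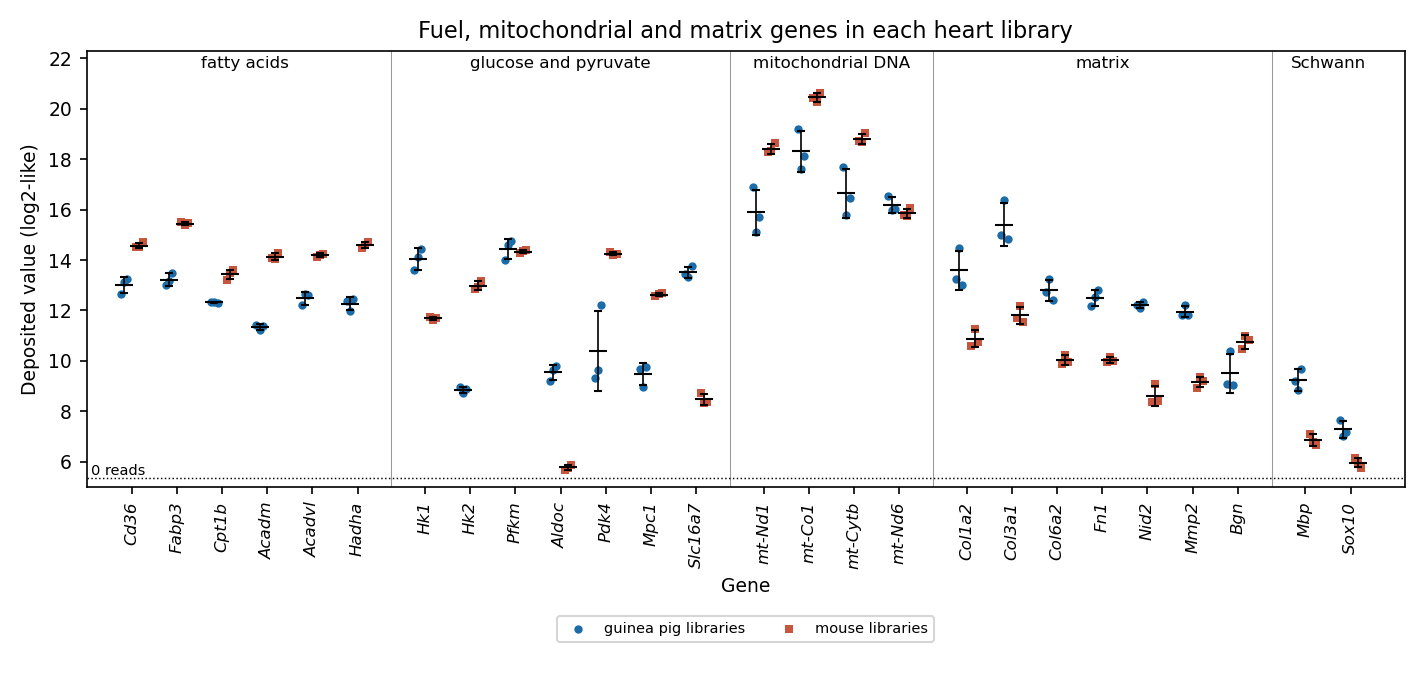
Deposited log2-like values of fuel, mitochondrially encoded, matrix and Schwann cell marker genes (horizontal axis) in each of the 3 guinea pig (blue circles) and 3 mouse libraries (red squares), with the species mean as a bar and ± 1 SD as whiskers, and a dotted line at the value of 0 reads (5.3645). Every fatty acid gene shown is lower in guinea pig, every matrix gene shown except Bgn is higher, and the glucose genes go both ways.

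Growth and timing genes were called often. Of 26 insulin, IGF and growth signalling genes, 5 were higher and 10 lower (57.7% called), but 10 were higher and 6 lower when scaled to total reads. Igf2, a fetal growth factor that falls after birth in mice, had 9499, 10687 and 11314 scaled reads in guinea pig and 1095, 598 and 505 in mouse, a difference of 3.77 ± 0.26 (limma adjusted p = 3.35e-09). It differed by 8.37 in liver. Pik3r1 (-1.88), Gsk3b (-1.95) and Foxo1 were among the lower genes. Of 17 circadian clock genes, 3 were higher (Cry2 at 1.81, Cry1 at 1.51 and Per2 at 1.14) and 6 lower, among them Rora (-2.64), Tef (-2.59), Bhlhe41 (-2.50), Npas2 and Clock, and 5 were higher and 5 lower when scaled to total reads. Per2 was at 0.92 without mouse replicate 3, and Clock (-1.02) at -0.88 without guinea pig replicate 3, -0.98 without mouse replicate 1 and -0.95 without mouse replicate 3. The time of day of sampling is not given in the labels.

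Of 31 proteasome genes, 2 were called (6.45% beside 33.3% of all genes), Psmd12 (1.65) and Psmd4 (1.01), and 7 when scaled to total reads. Psmd4 was at 0.93 without guinea pig replicate 2, 0.99 without mouse replicate 1 and 0.98 without mouse replicate 2. Of 69 cytosolic ribosome genes, 5 were higher and 6 lower (15.9% called), with 3 to 9 lower when each library was left out in turn, the extremes being guinea pig replicates 2 and 1. When scaled to total reads 12 were higher and 1 lower, and with quantile normalisation 8 and 3. Rpl12 (3.58) and Rpl5 (3.25) had the largest differences among these 69, which do not include Rpl41, and both differed in the same direction in liver (3.86 and 3.58). Ribosomal protein genes have many processed copies, so the levels of single members are uncertain. Of 30 heat shock and chaperonin genes, 5 were higher (16.7%, beside 15.9% of all genes) and 1, Dnaja1, was lower (3.33%, beside 17.5%). The higher genes were Hspa2, Hsp90aa1, Hspb3, Hspb1 and Hsph1, the last at 0.97 without mouse replicate 1. When scaled to total reads, 10 were higher and 1 lower. Of 24 antioxidant enzymes, 4 were lower (16.7%, beside 17.5% of all genes) and 1 was higher, but 3 were lower and 5 higher when scaled to total reads. Gpx4, which protects membranes from lipid peroxides, had 1357, 1298 and 1765 scaled reads against 8414, 8095 and 8544 (-2.45), and Gpx3, the secreted form, was higher by 1.40. In the iron list of 13, 23.1% were called, beside 33.3% of all genes. Aco1 (2.03) and Tfrc (1.02) were higher and Hfe (-1.47) was lower. Tfrc was at 0.84 to 0.98 and not called without any of guinea pig replicates 1 and 2 or mouse replicates 2 and 3. Of 7 genes of vitamin C transport and use, Plod2 (-2.36) and Gsto1 (-1.97) were lower (28.6% called, beside 33.3% of all genes).

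The same species were compared in liver, with 3 guinea pig and 2 mouse libraries. The guinea pigs are the same animals, 1 mouse gave both organs, and the liver table was normalised on its own. Among 9847 genes kept in both organs, 3155 were called in heart and 3669 in liver (37.3%). In both organs with the same sign were 1544 genes, which is 48.9% of the heart calls and 42.1% of the liver calls, 706 higher and 838 lower in guinea pig. A further 219 were called with opposite signs, and 1392 were called in heart without a call in liver. Creb5 (-8.08 in liver), Nedd4 (-5.37), Ahnak (-4.26), Rps6kl1 (4.13) and Apod (3.85) were among the genes with large differences of the same sign. Fndc5 (0.72), Dgat2 (0.23) and Dkk3 (0.38) were not called in liver.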

How the data were processed

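Per the labels, ribosomal-RNA-depleted total RNA of flash-frozen heart was sequenced. Per the submitters' processing notes the tools were cutadapt, Salmon and DESeq2, with the build GRCm38. The deposited values are variance-stabilised, log2-like and made per tissue, and how genes of other species were assigned is not given in the sources used here. The table's 26 columns of other series were not used. Inverting the transform gave whole reads for 100% of values (within 0.001). Groups and replicates came from library names.

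limma 3.58.1 in R 4.3.3 was fitted to the deposited log2 values of all 14 heart libraries, with a coefficient per species and a variance trend (10 residual degrees of freedom), so SEs share the spread of 4 species. Genes were called at an adjusted p under 0.05 and a difference of at least 1. Alternatives covered the size threshold, filter, libraries, scaling, variance model, voom, a block for replicate number, and each library left out in turn. Voom scaled to total reads was added after seeing the data. On simulated data with 10714 genes, 88.5% of 96 4-fold and 6.1% of 98 2-fold changes were called, and 0 of 10520 unchanged genes. A limma adjusted p under 0.05 was reached by 94 of the 98 2-fold changes and by 6 unchanged genes, so the size limit set most of this outcome. The simulation gave every gene the same relative spread and, apart from the changed genes, all species the same means. These shares are therefore not error rates of the real comparison.

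Named genes were the 12 largest differences in each direction detected in both species without overlap, the 5 largest near the minimum in 1 species, up to 5 called per list, 16 role genes and all mitochondrially encoded genes. Other list members were named after their values were seen. The lists and members were chosen with earlier results of these data known. Gene models were not given for these species, so no sequences or coordinates are shown. Some genes of the lists are counted there but not reported here by name.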

Additional observations from a re-analysis of the deposited data

Results flagged for a closer look

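A set of 18 named or list genes, out of 635, was called in both organs with opposite signs, with no overlap of libraries within either organ. Over all 9847 genes kept in both organs, 219 were called with opposite signs, without the condition on overlap. Whether opposite signs were more frequent among named or list genes was not tested. The difference between the organs was not tested, since the tables were normalised separately. Among glucose and pyruvate genes, Aldoc was higher in guinea pig heart (3.78) and lower in guinea pig liver (-2.29), Pgam1 had 2.54 and -1.18, and Pdk4 went the other way with -3.85 in heart and 3.33 in liver. The monocarboxylate transporter Slc16a7 had 5.03 and -3.45. Fatty acid genes lower in heart and higher in liver were Acadm (-2.80 and 1.23), Fabp3 (-2.22 and 1.36) and Echs1 (-1.26 and 1.34). Basement membrane genes Nid2 (3.60 and -1.34) and Lama4 (1.88 and -1.50) were higher in guinea pig heart and lower in guinea pig liver. Membrane channel and receptor genes with opposite signs were Kcnj12 (-2.66 and 2.00), Kcnj3 (-1.45 and 2.54), Adra1a (-2.19 and 3.01) and Scnn1a (5.57 and -2.57). Apoa1 differed by 4.85 in heart and -9.96 in liver. Plod2 (-2.36 and 2.74), Gsto1 (-1.97 and 2.69), Npas2 (-1.28 and 1.39) and Fbxo32 (-1.36 and 1.10) completed the set. With 3 libraries per species in heart, no search for outlying libraries was made within groups.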

How the results depend on the processing

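Without a size threshold 6409 genes passed (3123 higher, 3286 lower), and a limma test against a difference of 1 passed 1632 (741 higher, 891 lower). Keeping genes above the table median left 2293 called, 991 of them higher, with a median difference of -0.04. The median was 0.03 after centring, 0.04 after quantile normalisation and 0.53 with voom scaled to total reads, where 3620 genes were higher. Leaving out each library gave 3406 to 3555 called genes, 1622 to 1691 higher, 1782 to 1864 lower, and a median of 0.00 to 0.01. Among 635 named or list genes, the only called difference that changed sign under these settings was that of Atp2a2, at 0.03 with quantile normalisation; changes of sign of differences that were not called were not counted. Without a size threshold 3247 genes had the same sign in both organs. Replicate numbers were not used as pairs in the main fit. Correlations of deviations were 0.1, 0.096 and 0.077 for equal numbers and -0.056 to -0.029 otherwise, so each library correlated best with its own number. Whether equal numbers mark something shared was not tested. The fit with a replicate block, on 6 libraries, called 3496 genes, 1663 higher and 1833 lower. The transform limits calls of rare genes: from 10 scaled reads a 6.45-fold change was needed for a difference of 1. The effect of depth was not tested.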
